A study of Mus musculus with 10 samples.

Results

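The p53 module described here is Trp53, the mouse gene of the tumour suppressor p53, with its regulators and known target genes, 32 genes in all. They are the rows of the deposited table whose gene identifier carries one of these 32 symbols, out of 55385 rows. All 32 were found, and all 32 passed the filter on low counts that left 17997 genes for testing. RNA sequencing measured sorted lung endothelial cells of Cdh5.iCreERT2xTnfsf10Lox/Lox mice, in which both copies of Tnfsf10, which encodes the death ligand TRAIL, are flanked by loxP sites (Tnfsf10 L/L) in every library. Controls had no Cre transgene (genotype Cdh5.Cre W/W, 5 libraries). The other 5 libraries, labelled EC-TRAIL KO and called labelled-KO libraries here, came from carriers of a tamoxifen-inducible Cre under the endothelial Cdh5 promoter (Cdh5.Cre Tg/W). No control carries Cre, so effects of the transgene and of the deletion cannot be told apart. Mice were 8 to 14 weeks of age. The same tamoxifen protocol, 1 mg per mouse and day for 5 or 10 days by injection into the abdomen, is given for all 10 libraries. The design text counts 4 Tg/W animals where the sample list has 5, and all 5 were used.

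p53 is a transcription factor that is held at a low level by the ubiquitin ligase Mdm2 and its partner Mdm4 and is stabilised after DNA damage and other stress. It then binds response elements made of a pair of half-sites and raises genes of cell cycle arrest, apoptosis, DNA repair and metabolism, Mdm2 itself among them, which closes a negative feedback loop. In endothelial cells p53 is known for its part in growth arrest and apoptosis after irradiation.

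Candidate response elements are shown first, because such sites are how p53 reaches its direct targets. RefSeq promoter windows of GRCm38.p6, each 250 bases before to 50 bases after a transcript start, were matched for 25 of the 32 genes (35 windows). Trp53inp1, Pmaip1, Zmat3, Perp, Ddb2, Xpc and Rrm2b had no window in that table. Each window was searched for the p53 consensus, which is the same on both strands, as 2 half-sites with intact cores and up to 13 bases between them. No other motif was searched. The sites below allow at most 3 mismatches outside the cores. Where a window held several pairs, the one with the fewest mismatches is shown. Capitals mark the half-sites, and a run of small letters between them is the spacer.
Cdkn1a: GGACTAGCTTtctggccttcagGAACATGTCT
Rps27l: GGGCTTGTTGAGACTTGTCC
Sesn1: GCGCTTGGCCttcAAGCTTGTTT
Aen: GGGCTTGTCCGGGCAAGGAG
Bbc3: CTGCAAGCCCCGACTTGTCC
Trp53: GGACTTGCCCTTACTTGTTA
Tigar: GGTCTAGCTCTGGCAAGACT
Mdm4: AAGCAAGGTAtgctgTGGCAAGCCT

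The Cdkn1a site (chr17:29090906-29090937, plus strand) had 0 mismatches and a spacer of 12 bases. Directly after it stands tgacatgttc, which forms with GAACATGTCT another pair, with no spacer and 1 mismatch. That pair is not marked, because pairs were ranked by mismatches before spacer length. The Rps27l site (chr9:66946296-66946315, plus strand) had 1 mismatch, and the Sesn1 site (chr10:41887253-41887275, plus strand) had 2. The sites of Aen (chr7:78895937-78895956), Bbc3 (chr7:16309486-16309505) and Trp53 (chr11:69580284-69580303), all on the plus strand, had 3 each. So had those of Tigar (chr6:127109746-127109765) and Mdm4 (chr1:133025626-133025650), both on the minus strand. Of all 32851 windows of this length in the table, 0.0731% held a site with 0 mismatches, 0.417% one with at most 1, 2.12% at most 2 and 6.72% at most 3. The last was met by 9 of the 35 windows of these genes, from 8 genes, since overlapping windows of Aen hold the same site. A perfect half-site alone stood in 8.36% of all windows and in 11 of the 35 windows of these genes, from 10 genes. A match is a description of the letters. It shows no binding, and these data hold no measurement of p53 on DNA.

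A pair of windows is given whole, since these genes bound the results below. Cdkn1a, with a site of 0 mismatches, had the highest level per length and no detectable difference between groups. Phlda3 had the smallest p-value of the module. The Cdkn1a window (chr17:29090729-29091028, plus strand) belongs to the upstream one of 2 listed starts. The window of the other start held no perfect half-site and no pair of half-sites with intact cores within the spacer limit. The Phlda3 window (chr1:135765835-135766134, plus strand) held no whole half-site, which says only that these letters are not in these 300 bases. It ends in gaacatgt, the start of a half-site with an intact core, cut off by the window edge. The bases beyond were not searched, so the window does not show that Phlda3 lacks a site.
Cdkn1a: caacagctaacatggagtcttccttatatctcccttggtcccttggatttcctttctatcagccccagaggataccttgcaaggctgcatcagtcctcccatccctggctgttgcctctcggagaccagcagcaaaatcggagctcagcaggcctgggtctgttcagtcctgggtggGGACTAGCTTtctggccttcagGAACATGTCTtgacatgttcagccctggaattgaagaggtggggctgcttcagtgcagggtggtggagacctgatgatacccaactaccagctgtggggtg
Phlda3: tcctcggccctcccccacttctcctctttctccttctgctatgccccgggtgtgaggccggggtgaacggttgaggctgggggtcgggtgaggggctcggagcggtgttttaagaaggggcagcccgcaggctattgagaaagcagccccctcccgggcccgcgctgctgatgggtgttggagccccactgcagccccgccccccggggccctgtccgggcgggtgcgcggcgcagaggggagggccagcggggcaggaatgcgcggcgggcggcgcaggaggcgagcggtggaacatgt

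Libraries held 29806083 to 56897822 expected counts, and the labelled-KO libraries were shallower (exact two-sided permutation p = 0.0159). The lowest count of any of the 32 genes in any library was 35, for Psrc1. Tnfsf10 (ENSMUSG00000039304) was lower than in every control in 4 of 5 labelled-KO libraries, at 80.99 to 198.9 CPM (counts scaled to library size) against 298.2 to 373.6. Replicate 2 of that group, at 318.0 CPM, lay within the control range, so groups are named by their labels throughout. Between the groups Tnfsf10 had a log2 fold change of -0.90 and did not pass (edgeR quasi-likelihood test, adjusted p = 0.425). Endothelial markers were high in every library (Cdh5 3822 ± 292.5 CPM in controls against 4038 ± 146.7 CPM in the other group, SD, n = 5 each). The alveolar surfactant gene Sftpc was as abundant (4377 ± 1045 and 4064 ± 472.4 CPM), so the libraries hold epithelial RNA too. Leukocyte markers differed in level. Cd68 was at 36.3 ± 5.66 and 34.8 ± 2.73 CPM, and Mrc1 at 14.9 ± 2.40 and 22.8 ± 8.34 CPM. Ptprc was at 3.32 ± 1.19 and 3.24 ± 0.912 CPM, and Adgre1, Cd3e and S100a8 were at most 0.35 CPM in any library. Lyz2, which macrophages and alveolar type II cells share, was at 1404 ± 279.2 and 1267 ± 179.7 CPM. Fewer cells of a type and less RNA per cell cannot be told apart in such bulk samples.

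None of the 32 genes passed the test between the groups. Over all genes, edgeR's quasi-likelihood test called 0.439% higher (79 genes) and 0% lower in the labelled-KO libraries, at an adjusted p under 0.05. Of the 32 genes, 0 were called in either direction by edgeR. DESeq2 called Phlda3 and Psrc1, against 1.16% of all genes higher and 0.0167% lower, and limma-voom called none. At an unadjusted p under 0.05, 7 of the 32 were higher, where 3.81% of all genes were, and 2 were lower, where 1.32% of all genes were. The 7 were Phlda3, Psrc1, Aen, Bbc3, Sesn2, Gdf15 and Ephx1, and the 2 were Xpc and Rrm2b. In all, 21 had a log2 fold change above 0 and 11 below, against 47.4% of all genes above 0. The median of the 32 was 0.067 on the log2 scale, and that of all genes tested was -0.0085. In Phlda3 alone of the 32 the lowest labelled-KO value exceeded the highest control value, a pattern held by 1.38% of all genes. None had the reverse pattern, held by 0.261% of all genes. For 30 of the 32 the fitted fold was under 1.5 either way, the exceptions being Psrc1 and Gdf15.

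**Figure D1:**
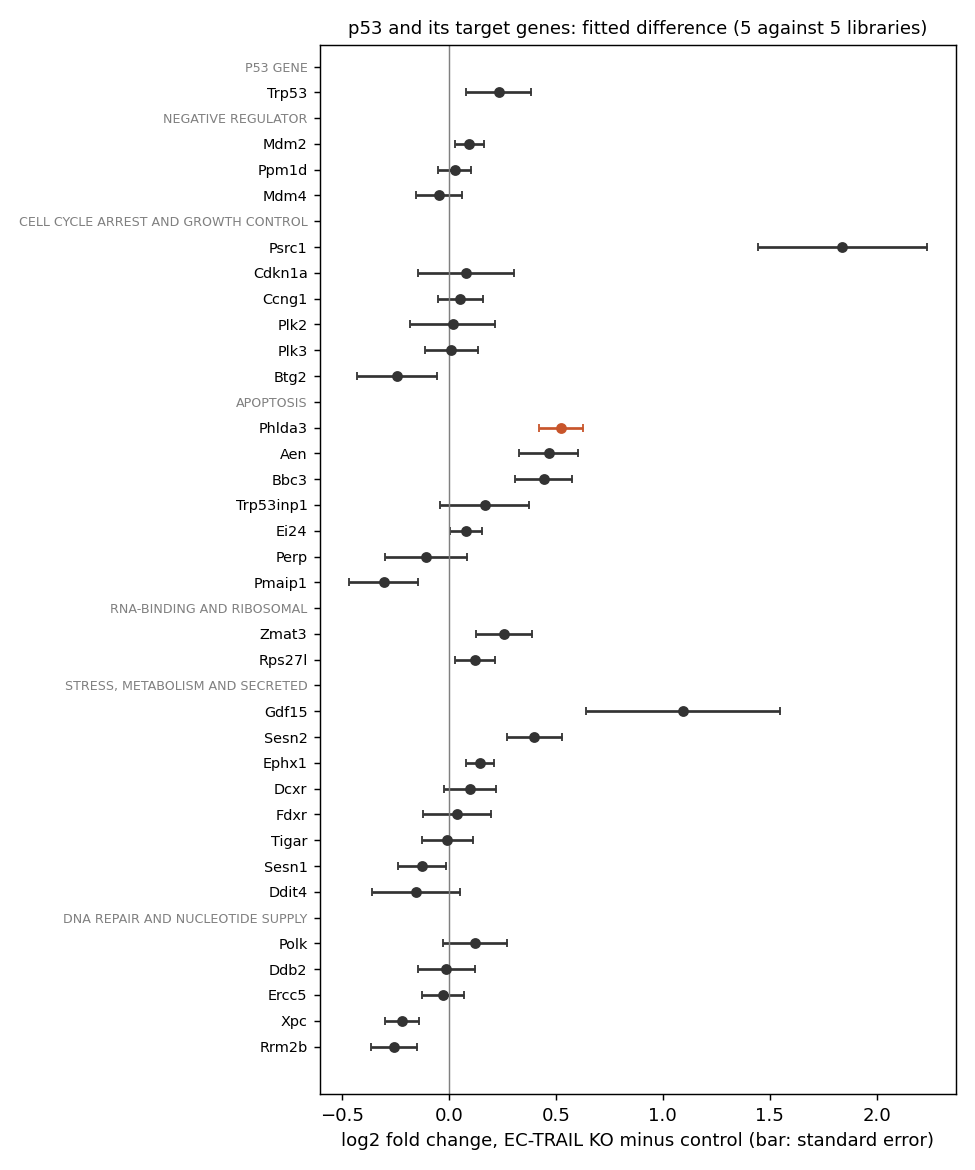
Log2 fold change of each of the 32 genes (x axis, labelled-KO libraries minus controls, 5 each), grouped by role (y axis), with bars for the standard error. Psrc1 at 1.84 and Gdf15 at 1.09 stand to the right of the rest, and Phlda3 (orange) is the one gene whose groups do not overlap.

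The levels of the module spanned a wide range. Per kb of merged exons, controls ran from 0.335 CPM per kb for Psrc1 to 156.4 CPM per kb for Cdkn1a, the gene of the cyclin-dependent kinase inhibitor p21. Plk2 (127.5 CPM per kb), a polo-like kinase of stress responses, and Btg2 (119.9 CPM per kb), an antiproliferative gene, followed, then Ephx1 (71.8 CPM per kb), which encodes microsomal epoxide hydrolase. Ddit4, an mTORC1 inhibitor, was at 42.4 CPM per kb. The median of the 32 was 9.99 CPM per kb. At the low end, above Psrc1, stood Fdxr (1.63 CPM per kb), the mitochondrial ferredoxin reductase, and Zmat3 (1.83 CPM per kb), an RNA-binding protein. Merged exon length counts all annotated isoforms, so a gene with many long variants, such as Mdm4 at 14798 bases, reads low on this scale.

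**Figure D2:**
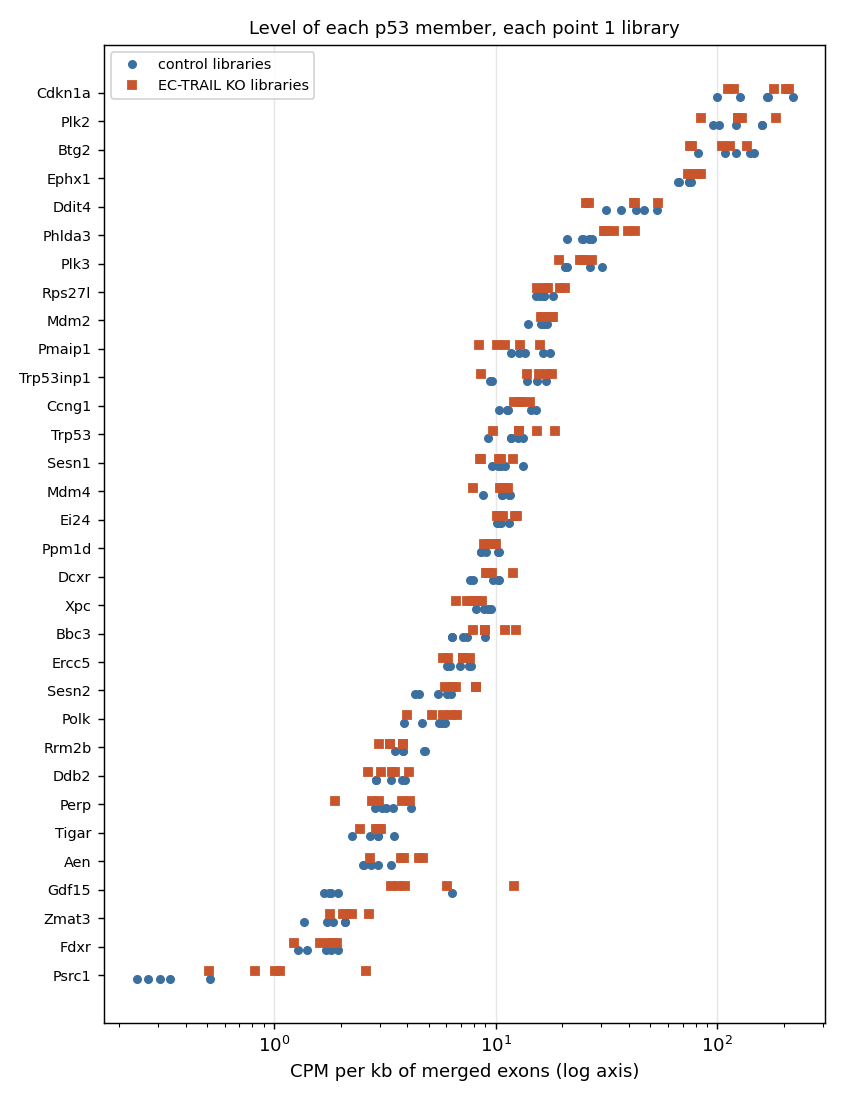
CPM per kb of merged exons (x axis, log scale) of each of the 32 genes (y axis), with each point 1 library of the controls (blue circles) or of those labelled EC-TRAIL KO (orange squares). Cdkn1a is at the top and Psrc1 at the bottom, and for most genes the colours overlap.

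Trp53 itself (ENSMUSG00000059552, GRCm38 chromosome 11, 69580359 to 69591873, plus strand) was at 54.1, 51.01, 47.7, 47.4 and 37.4 CPM in control replicates 1 to 5. Labelled-KO replicates 1 to 5 had 62.2, 75.05, 51.5, 51.4 and 39.3 CPM. Replicates 1 and 2 of the latter were above all controls, and the other 3 lay within the control range. Its log2 fold change was 0.23 (95% interval -0.0991 to 0.566; edgeR adjusted p = 0.997). An mRNA level does not measure p53 protein, which is controlled mainly by its stability.

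None of its 3 negative regulators passed. Mdm2 (ENSMUSG00000020184, chromosome 10, 117688875 to 117710758, minus strand), a direct target and the main brake on p53, was at 81.7, 71.2, 86.4, 83.8 and 83.1 CPM in controls. In the labelled-KO libraries it was at 85.9, 82.9, 92.4, 91.7 and 81.3 CPM. The groups overlapped, with a log2 fold change of 0.096 (95% interval -0.0529 to 0.245; edgeR adjusted p = 0.997). Mdm4, which inhibits the transactivation domain of p53, was at 157.7 ± 17.2 and 152.7 ± 20.4 CPM (SD, n = 5 each), and its lowest value, 117.3 CPM, was in replicate 4 of the labelled-KO libraries. Its log2 fold change of -0.046, like that of Ppm1d at 0.028, turned sign with a library left out. Ppm1d, the phosphatase Wip1 that ends the damage signal, was at 29.8 ± 2.81 and 30.4 ± 1.53 CPM (SD, n = 5 each), with a 95% interval of -0.139 to 0.195 for its log2 fold change.

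Among the arrest genes, Cdkn1a (ENSMUSG00000023067, chromosome 17, 29090976 to 29100727, plus strand) varied within both groups. Controls had 448.3, 353.8, 778.0, 602.6 and 595.1 CPM in replicates 1 to 5. In the labelled-KO group the values were 398.5, 424.1, 640.0, 722.8 and 751.3 CPM. In both groups replicates 1 and 2 were the low ones, and the groups overlapped fully (log2 fold change 0.08, 95% interval -0.412 to 0.573; edgeR adjusted p = 0.997). The width of the interval means that equal levels are not shown. The log2 fold change turned to -0.045 without control replicate 2, to -0.024 without labelled-KO replicate 5 and to -0.0054 without labelled-KO replicate 4.

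Ccng1, the cyclin G1 gene, had a log2 fold change of 0.05 (95% interval -0.177 to 0.284), and its largest values were in controls 3 and 5 (50.8 and 53.3 CPM). Plk2 and Plk3, both polo-like kinases induced by stress, had 0.02 and 0.01. Ccng1, Plk2 and Plk3 each turned sign with a library left out. Btg2 was at 223.6 to 402.2 CPM (median 334.5) in controls and 207.5 to 371.9 CPM (median 289.0) in the labelled-KO libraries, a log2 fold change of -0.24. In Btg2 the lowest library of each group was replicate 4 in controls and replicate 2 in the other group. None of these 4 passed (edgeR adjusted p = 0.997 for each).

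Psrc1 (ENSMUSG00000068744, chromosome 3, 108383839 to 108388231, plus strand), a microtubule-associated spindle gene, stood apart from the other arrest and growth genes. Controls had 0.914, 1.14, 0.812, 1.74 and 1.04 CPM. Among the labelled-KO libraries the values were 1.72, 8.79, 3.57, 3.40 and 2.76 CPM. Of these, 4 were above every control and replicate 1 was just below control replicate 4. The log2 fold change was 1.84 (SE 0.394; edgeR adjusted p = 0.0796), and the call was gained without replicate 1 of the labelled-KO libraries (log2 fold change 2.03, edgeR adjusted p = 0.0219, against 0.000304 to 0.271 over the 18 alternative settings). Without replicate 2 of that group the log2 fold change was 1.34.

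Values of mitotic genes are set beside those of Psrc1. Of the 14 on the list 11 rose, 0 fell while 3 missed the threshold (edgeR adjusted p = 0.0432 for each of the 11), and its median log2 fold change was 2.21. Over all genes, 0.439% were called higher and 0% lower. The summed level of the list was 63.7 to 132.1 CPM in controls. It was 195.2, 1002, 416.2, 534.4 and 304.8 CPM in replicates 1 to 5 of the labelled-KO libraries. In both Psrc1 and this sum replicate 2 was the highest of that group and replicate 1 the lowest. Among the 11, Top2a, the topoisomerase of dividing cells, was 5.07-fold higher, Mki67 5.66-fold, Cdk1 5.44-fold and Cenpf 6.07-fold. Ccna2, Ccnb2, Plk1, Birc5, Kif11, Aurkb and Ube2c rose 3.40-fold to 5.49-fold. All 11 calls were lost without any 1 control, without labelled-KO replicate 3 or 4, with limma-voom and with library size only (edgeR adjusted p of Top2a up to 0.167), and that of Ccnb2 also without labelled-KO replicate 2. Over the 18 alternatives Top2a had log2 fold changes of 1.90 to 2.54. The part of dividing cells in the values of Psrc1 was not tested.

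Of the 7 apoptosis genes 5 had log2 fold changes above 0, with a median of 0.167. Phlda3 (ENSMUSG00000041801, chromosome 1, 135766119 to 135769136, plus strand), whose product blocks membrane recruitment of the kinase Akt, was at 41.3, 38.5, 32.9, 42.5 and 38.2 CPM in controls. Values of the labelled-KO group were 61.9, 66.1, 48.1, 53.5 and 48.96 CPM. All 5 were above all 5 controls, a 1.44-fold difference (log2 fold change 0.53, SE 0.103). The adjusted p was 0.0528 with edgeR, just over the threshold, and 0.000694 with DESeq2. Leaving out labelled-KO replicate 5 brought it under the threshold (log2 fold change 0.57, edgeR adjusted p = 0.04). Over the 18 alternatives the adjusted p ran from 0.000694 to 0.18.

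Aen (ENSMUSG00000030609, chromosome 7, 78895854 to 78911209, plus strand), a nuclease that enhances apoptosis, was at 19.5, 15.9, 17.2, 14.9 and 14.7 CPM in controls. It was at 26.2, 27.3, 22.4, 21.8 and 15.8 CPM in the labelled-KO libraries, where replicate 5 alone lay within the control range. The log2 fold change was 0.47 (SE 0.138; edgeR adjusted p = 0.381). Without that replicate it was 0.57 and passed (edgeR adjusted p = 0.0451, against up to 0.925 over the alternatives).

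Bbc3 (ENSMUSG00000002083, chromosome 7, 16308393 to 16318205, plus strand), which encodes the pro-apoptotic protein Puma, was at 19.0, 15.1, 15.8, 13.5 and 13.6 CPM in controls. Labelled-KO replicates 1 to 5 had 23.4, 26.3, 19.0, 19.0 and 16.9 CPM. Of these, 3 were above every control, though replicate 3 and control replicate 1 are equal to the digits printed. The log2 fold change was 0.44 (SE 0.134; edgeR adjusted p = 0.411). In Trp53, Phlda3, Aen, Bbc3, Zmat3 and Polk, the highest 2 of the 10 libraries were replicates 1 and 2 of the labelled-KO group. That order was singled out after the values were seen, and its share over all genes was not computed.

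The other pro-apoptotic BH3-only gene of the module had a log2 fold change below 0. Pmaip1 (ENSMUSG00000024521, chromosome 18, 66458533 to 66465565, plus strand), which encodes Noxa, was at 37.1, 32.2, 48.01, 34.98 and 44.9 CPM in controls. In the labelled-KO group the values were 27.7, 23.1, 35.2, 30.3 and 43.3 CPM. In this group 3 libraries were below every control and the other 2 were within the control range (log2 fold change -0.30, SE 0.161; edgeR adjusted p = 0.997). Trp53inp1, a stress protein that promotes p53 activity, had a log2 fold change of 0.17 with a range of 61.1 to 109.4 CPM in controls alone. Ei24, an endoplasmic reticulum protein, had 0.08. Perp, a membrane protein of desmosomes, had -0.11, at 5.58 to 8.10 CPM in controls and 3.68 to 8.03 CPM in the others. None of Trp53inp1, Ei24 and Perp passed (edgeR adjusted p = 0.997 for each).

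**Figure D3:**
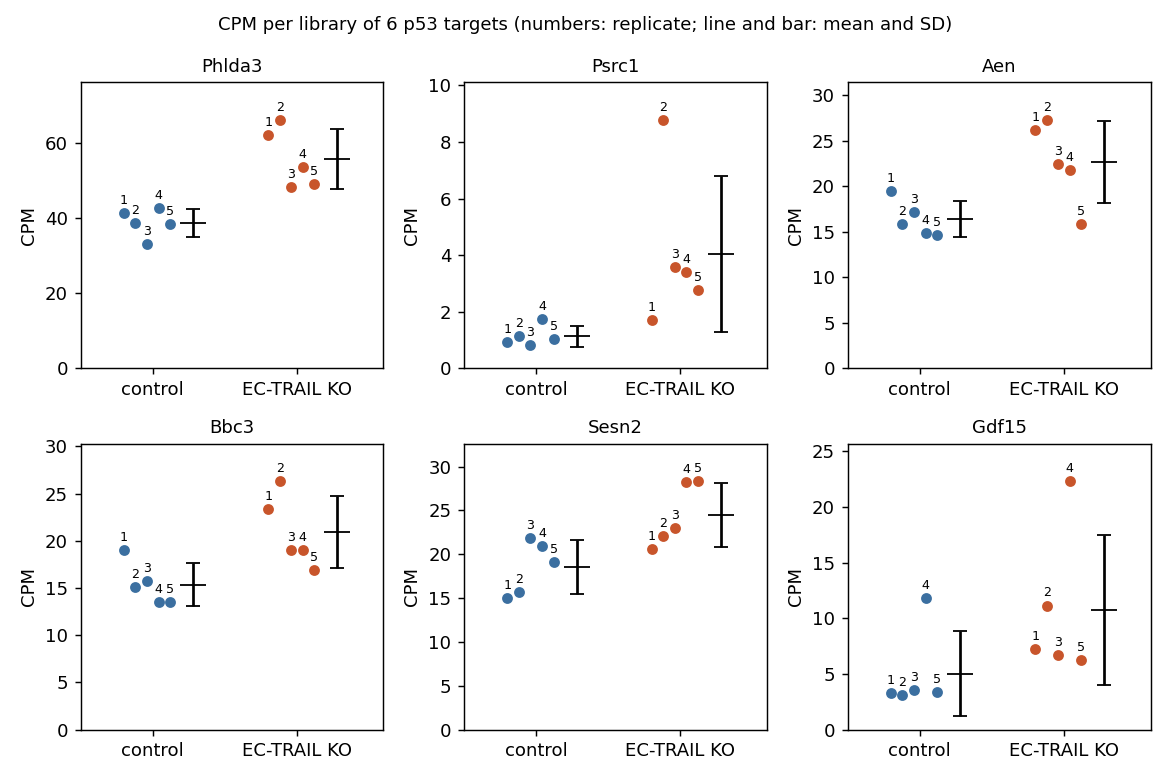
CPM (y axis, from 0) of Phlda3, Psrc1, Aen, Bbc3, Sesn2 and Gdf15 in each library, by group (x axis); numbers are replicates, and the line and bar are the mean and SD of 5 libraries. Phlda3 is separated between the groups, whereas Gdf15 of control replicate 4 (11.8 CPM) is above 4 of the 5 labelled-KO libraries.

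Among stress and metabolic genes, Sesn2 (ENSMUSG00000028893, chromosome 4, 132492032 to 132510501, minus strand), a leucine sensor that restrains mTORC1, was at 15.0, 15.8, 21.9, 20.9 and 19.1 CPM in controls. Among the labelled-KO libraries the values were 20.6, 22.1, 23.0, 28.3 and 28.4 CPM. Replicates 2 to 5 of the latter were above every control (log2 fold change 0.40, SE 0.13; edgeR adjusted p = 0.508). Its paralog Sesn1 had a log2 fold change of -0.13 (edgeR adjusted p = 0.997).

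Gdf15 (ENSMUSG00000038508, chromosome 8, 70629393 to 70632456, minus strand), a secreted stress cytokine, was at 3.29, 3.13, 3.59, 11.8 and 3.37 CPM in controls. Values of the labelled-KO group were 7.26, 11.2, 6.74, 22.3 and 6.27 CPM. Replicate 4 was the highest in each group. The log2 fold change was 1.09 (SE 0.453; edgeR adjusted p = 0.868). It was 1.68 without control replicate 4 and 0.64 without replicate 4 of the labelled-KO libraries, with edgeR adjusted p = 0.112 and 0.89. It passed in 1 of the 18 alternatives (adjusted p 0.0115 to 1), the one with the replicate number as a block. Pairing by that number is neither established nor excluded.

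Ephx1 (ENSMUSG00000038776, chromosome 1, 180976210 to 181020904, minus strand) was at 144.8, 129.3, 145.8, 149.2 and 131.1 CPM in controls and 165.2, 143.4, 151.0, 159.1 and 156.8 CPM in the others. In that group 4 libraries were above every control, by little (log2 fold change 0.15, SE 0.0656; edgeR adjusted p = 0.957). Dcxr, a carbonyl reductase, had a log2 fold change of 0.098, Fdxr 0.04 and Tigar, a fructose bisphosphatase, -0.0064, and the last 2 turned sign with a library left out. Ddit4 had -0.15. None of these 4 passed (edgeR adjusted p = 0.997 for each).

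Zmat3 (ENSMUSG00000027663, chromosome 3, 32334792 to 32366014, minus strand) was at 23.9, 19.8, 21.2, 15.7 and 23.8 CPM in controls. It was at 25.8, 30.9, 24.3, 20.4 and 23.5 CPM in the labelled-KO libraries, of which 3 were above every control (log2 fold change 0.26, SE 0.131; edgeR adjusted p = 0.997). Rps27l, a ribosomal protein gene, whose site above has 1 mismatch, was at 13.4 ± 0.888 and 14.6 ± 1.69 CPM (SD, n = 5 each; log2 fold change 0.12, edgeR adjusted p = 0.997). Of the 50-base words in Rps27l transcripts, 11.2% occurred in transcripts of other genes, so its counts depend on how reads were divided.

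Of the 5 repair genes 4 had log2 fold changes below 0, with a median of -0.028. Xpc (ENSMUSG00000030094, chromosome 6, 91489305 to 91515888, minus strand), the damage sensor of global nucleotide excision repair, was at 50.96, 51.1, 48.97, 52.2 and 44.99 CPM in controls. Labelled-KO replicates 1 to 5 had 45.3, 36.4, 40.9, 43.2 and 47.7 CPM. Of these, 3 were below every control, with replicate 2 the lowest (log2 fold change -0.22, SE 0.0791; edgeR adjusted p = 0.696).

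Rrm2b (ENSMUSG00000022292, chromosome 15, 37923952 to 37961318, minus strand), the p53-inducible ribonucleotide reductase subunit, was at 34.9, 34.8, 43.4, 32.2 and 43.9 CPM in controls. In the labelled-KO group the values were 30.7, 27.3, 35.0, 30.6 and 34.9 CPM. Again 3 were below every control (log2 fold change -0.26, SE 0.106; edgeR adjusted p = 0.868). Ddb2, which recruits Xpc to lesions, had -0.012, Ercc5, an excision endonuclease, -0.028 and the translesion polymerase Polk 0.12 (edgeR adjusted p = 0.997 for each). Ddb2 and Ercc5 turned sign with a library left out, as did Perp above. Of the 50-base words of Ddb2, 17.8% lie in its opposite-strand neighbour Acp2, and no source used here gives the strand setting of the counting. The same limit touches Rrm2b (10.7% of its words in other genes) and Cdkn1a (8.49%), which overlap a gene on the opposite strand. Pseudogenes share words with Mdm4 (7.31% in other genes) and Trp53 (3.95%).

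Within the groups the genes did not move as one. In 7 of the 32 genes the highest of the 10 libraries was replicate 2 of the labelled-KO group, and in 8 the lowest was that same library. It was highest in Trp53, Phlda3, Aen, Bbc3, Zmat3, Psrc1 and Polk, and lowest in Pmaip1, Xpc, Rrm2b, Perp, Btg2, Plk3, Sesn1 and Ercc5. The share of all genes with that library highest or lowest was not computed. This is the library with Tnfsf10 in the control range, the highest summed level of mitotic genes and the fewest expected counts (29806083). It also had the lowest summed level of alveolar and airway epithelial markers (6564 CPM, against 7843 to 11870 CPM in the other 9) and of fibroblast and mural markers (524.4 CPM). Its summed leukocyte markers were the lowest as well (1081 CPM), of which Lyz2 made up 1001 CPM. Single leukocyte markers went different ways. Ptprc (4.65 CPM), Mrc1 (36.9 CPM) and Cd79a (3.25 CPM) were at their highest of the 10 libraries there. Control replicate 1 was close behind for Ptprc (4.51 CPM) and Cd79a (3.16 CPM). Cd68 (31.9 CPM) and Tyrobp (0.896 CPM) were not at their highest in that library. The summed immediate early genes (9768 CPM) and ATF4 stress genes (411.2 CPM) were lowest in that library too. Their part in these values was not tested.

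**Figure D4:**
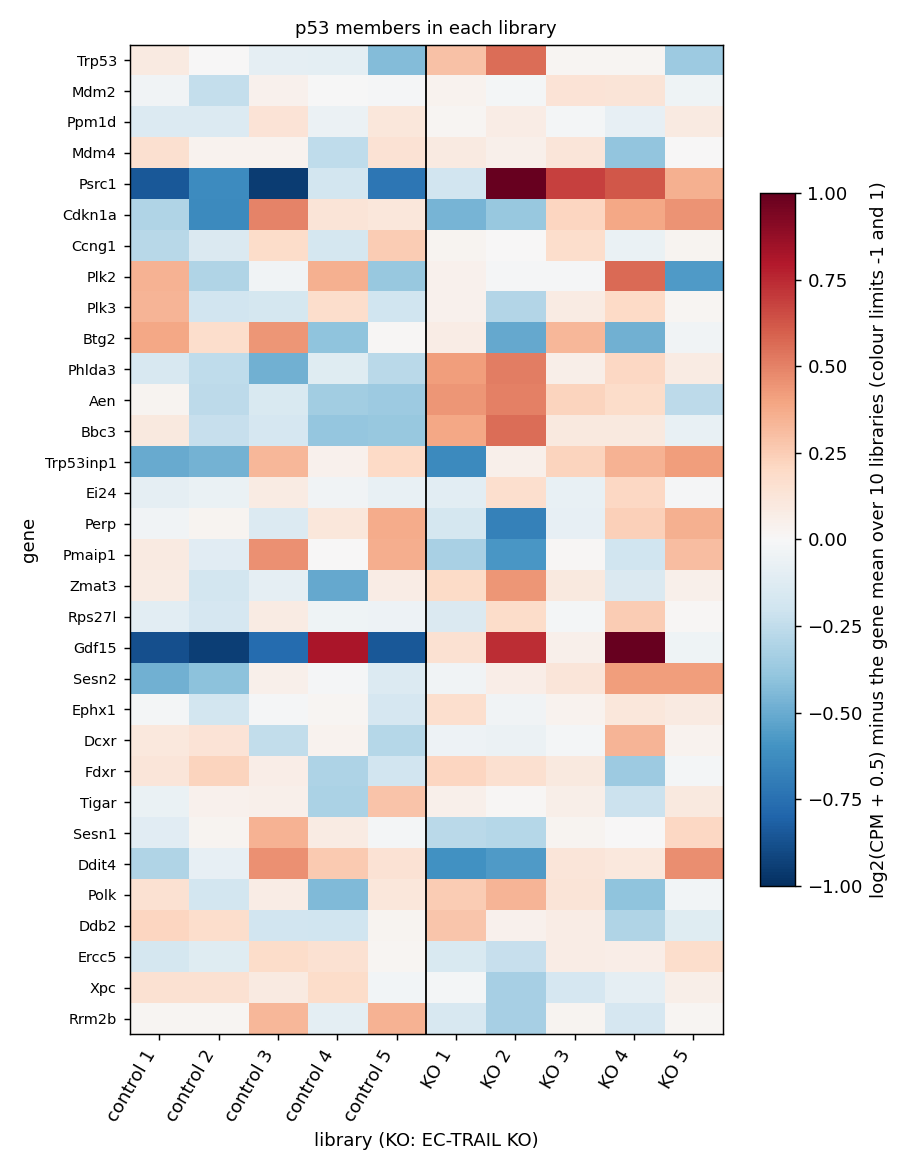
Log2(CPM + 0.5) of each of the 32 genes (rows, in the order of the roles above) in each library (columns), minus the mean of that gene over the 10 libraries; red is above and blue below that mean, and colours stop at -1 and 1. Phlda3, Aen and Bbc3 are red in replicates 1 and 2 of the labelled-KO libraries, and Cdkn1a and Ddit4 are blue in replicates 1 and 2 of both groups.

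A different order was shared by Cdkn1a, Ddit4 and Ercc5. In these 3 of the 32 genes the 4 lowest libraries were those numbered 1 and 2 in both groups, a pattern singled out after the values were seen. Ddit4 had 55.6, 64.5, 94.2, 82.1 and 75.5 CPM in controls and 44.8, 46.2, 74.6, 73.7 and 94.9 CPM in the labelled-KO libraries. Ercc5 was at 33.8 to 36.7 CPM in those 4 libraries and at 40.5 to 45.5 CPM in the other 6. Among genes of the other lists the same 4 libraries were lowest in Klf9 (228.9 to 305.7 CPM, against at least 381.1 CPM in the other 6) and Fkbp5 (9.50 to 22.9 CPM, against at least 25.02 CPM), both induced by glucocorticoids. They were also lowest in Fas, a death receptor and p53 target (70.8 to 86.2 CPM, against at least 92.9 CPM). Of the glucocorticoid-induced list, Tsc22d3, Per1, Sgk1 and Zbtb16 did not have this order. The labels do not say what a replicate number stands for.

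**Figure D5:**
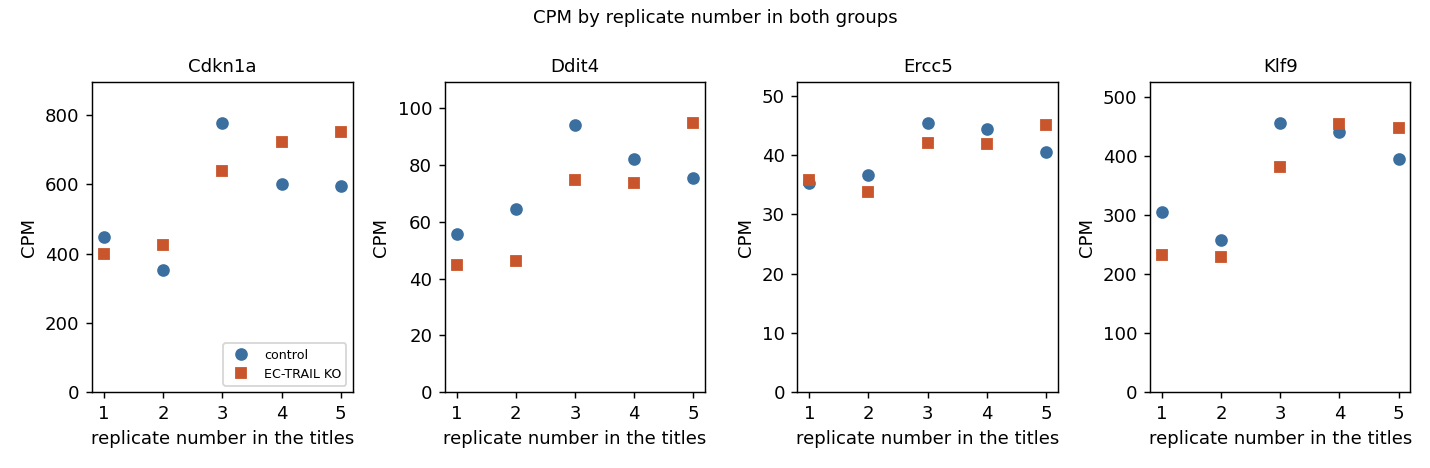
CPM (y axis, from 0) of Cdkn1a, Ddit4, Ercc5 and Klf9 against the replicate number in the sample titles (x axis), with controls as blue circles and labelled-KO libraries as orange squares. In each panel replicates 1 and 2 of both groups lie below replicates 3 to 5 of both groups, while the colours are mixed.

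A list of other p53 targets had members that passed. Of its 30 genes 4 rose, 0 fell and 26 did not pass, with a median log2 fold change of 0.14. By the same test, 0.439% of all genes were called higher and 0% lower. The 4 were Bax, a pore-forming member of the Bcl-2 family (35.01 ± 2.44 and 45.9 ± 3.25 CPM), and Eda2r, a TNF receptor family member (1.92 ± 0.646 and 7.54 ± 4.15 CPM; SD, n = 5 each). The others were Gtse1 (4.04-fold) and Ckap2 (5.64-fold), which are also microtubule proteins of mitosis (edgeR adjusted p = 0.0432 for each of the 4). Together with Pidd1, whose protein assembles the PIDDosome (log2 fold change 0.84, edgeR adjusted p = 0.271), these were the 5 of 30 whose groups did not overlap. In each, all labelled-KO libraries were above all controls, a pattern held by 1.38% of all genes. The 4 calls were lost without any 1 control or replicate 3 or 4 of the labelled-KO libraries (edgeR adjusted p of Bax up to 0.168), and that of Bax also without labelled-KO replicate 2. They were lost too with limma-voom and with library size only.

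Of 24 upstream kinases, cofactors and p53 relatives, 23 were tested and 0 passed. At an unadjusted p under 0.05, 1 was higher and 0 were lower by edgeR, against 3.81% and 1.32% of all genes. That gene was Chek2, a checkpoint kinase that phosphorylates p53 (2.68 ± 0.726 and 4.37 ± 1.28 CPM, SD, n = 5 each; log2 fold change 0.71, edgeR adjusted p = 0.52). Chek1 had 0.65, Hipk2, a kinase of p53, -0.12 and Trp53bp2, which encodes the p53 partner ASPP2, -0.13. The median of the 23 was -0.014.

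Programs that share targets with p53 had no member passing. Over all genes, 3.81% were higher and 1.32% lower at an unadjusted p under 0.05 by edgeR. In the ATF4 stress list, which also feeds into Sesn2, Ddit4 and Gdf15, 0 of 9 passed by edgeR (2 higher and 1 lower at an unadjusted p under 0.05) and the median was -0.078. Psat1 and Phgdh, both of serine synthesis, had 0.73 and 0.86, Chac1 -0.30 and Ddit3 -0.17. In the immediate early list, which responds to tissue dissociation as Btg2 and Plk3 can, 0 of 10 passed by edgeR (0 in either direction at an unadjusted p under 0.05). All 10 had log2 fold changes below 0, with Egr1 at -0.28, Ier2 and Fos at -0.20 and Junb at -0.15. The summed level of that list was 11910 to 15330 CPM in controls and 9768 to 13440 CPM in the labelled-KO libraries, and its part in the values of Btg2 and Plk3 was not tested. In the glucocorticoid-induced list 0 of 6 passed by edgeR (0 in either direction at an unadjusted p under 0.05), with Fkbp5 at 0.44, Per1 at 0.25, Sgk1 at 0.04 and Klf9 at -0.089, each of which turned sign with a library left out.

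Markers of other cell types were compared the same way, and 0 passed in each list by edgeR. All 11 alveolar and airway epithelial markers had log2 fold changes below 0 (median -0.14), with summed levels of 7843 to 11870 CPM in controls and 6564 to 9446 CPM in the other group. Epcam had -0.22, Lamp3 had -0.21, Cdh1 had -0.18, Cldn18 had -0.16, Sftpc had -0.11 and Sftpb had -0.0066, and the last 2 turned sign with a library left out. Among leukocyte markers Mrc1 had 0.61, Lyz2 -0.15, Cd68 -0.062, Tyrobp -0.39 and Cd79a 0.18, and 7 of the 10 were tested (summed levels 1245 to 1886 CPM and 1081 to 1562 CPM). Among fibroblast and mural markers Col3a1 had -0.030, Pdgfra -0.15, Pdgfrb -0.24, Notch3 -0.22 and Dcn 0.10 (summed levels 656.4 to 806.6 CPM and 524.4 to 816.8 CPM). Cd68, Tyrobp, Col3a1 and Dcn turned sign with a library left out. Of the endothelial markers Pecam1 had 0.11, Cdh5 0.08, Emcn 0.22 and Tek -0.22 (summed levels 11610 to 13420 CPM and 11540 to 13260 CPM). At an unadjusted p under 0.05, Mrc1 was higher and Tek lower.

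The median coefficient of variation in controls was 14.8% for the 32 and 10.7% for the 12681 tested genes with a mean CPM at or above the lowest of the 32. In the labelled-KO libraries it was 15.1% and 11.9%. The steadiest genes in controls were Ei24 (5.07%), Xpc (5.77%) and Ephx1 (6.52%). The most variable were Gdf15 (75.1%), Psrc1 (32.1%), Cdkn1a (29.2%) and Trp53inp1 (25.9%).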

How the data were processed

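Poly-adenylated RNA of sorted lung endothelial cells was sequenced with a stranded kit, per the labels' protocols. The submitters' processing notes name STAR 2.7.1a, RSEM 1.2.28 and GRCm38. The authors deposited expected counts per gene without normalization (81.2% of values whole). Annotation release and strand setting: not given in the sources used here. Symbols and positions are those of GENCODE M21 on GRCm38 (55144 of 55385 identifiers matched).

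Counts were rounded and tested in R 4.3.3 with edgeR 4.0.16 (filterByExpr, minimum count 10; TMM; quasi-likelihood F-test with a group term). Benjamini-Hochberg adjustment ran over 17997 genes, with a threshold of 0.05. Limma 3.58.1 and DESeq2 1.42.0 served as alternatives, beside other scalings and filters, the replicate number as a block and each library left out. CPM used TMM library sizes. A standard error is the log2 fold change over the square root of F, from which 95% intervals were made. In counts simulated at these depths (17706 genes tested), a 1.5-fold change was recovered in 56.2% of cases, a 2-fold change in 77.1% and a 4-fold change in 100%, with 7 false calls among 162. Changes were planted only in genes above a floor of mean CPM, and same-numbered libraries were simulated as unrelated. More calls than the 79 in the data ease the adjustment, so recovery in the data may be lower. No pair of libraries agreed within sampling noise (chi-square per degree of freedom at least 20.6). The labels do not say that libraries come from separate mice, so the p-values may reflect technical spread.

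The genes and lists were chosen with earlier results of these data known. All 32 genes are named, with values per library for the 12 with the smallest p and for Trp53, Mdm2 and Cdkn1a. From each other list those passing and the 4 with the smallest p are named, and for other cell types also the 2 most abundant. Pidd1, Fas, Ptprc, Adgre1, Cd3e, S100a8, Tsc22d3 and Zbtb16, and the values per library of Ddit4, were added after their values were seen.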

Additional observations from a re-analysis of the deposited data

Results flagged for a closer look

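In 14 of 168 groups of 5 libraries 1 library stood far from the other 4, by a gap of more than 0.71 of the group's range. Chance flags about 1 in 20 groups. Among the p53 genes there were 5 such cases in 64 groups. Gdf15 was at 11.8 CPM in control replicate 4, against 3.13 to 3.59 CPM in the other controls. Psrc1 was at 8.79 CPM in replicate 2 of the labelled-KO libraries, against 1.72 to 3.57 CPM. In replicate 4 of that group Mdm4 was at 117.3 CPM (others 154.4 to 167.8), Tigar at 8.93 CPM (others 10.5 to 11.2) and Dcxr at 13.8 CPM (others 10.4 to 11.1). Outside the p53 genes, replicate 2 of the labelled-KO libraries had Plk1 at 19.6 CPM, Kif11 at 56.7 CPM and Sftpc at 3243 CPM. Replicate 3 of that group had Col3a1 at 207.0 CPM and replicate 5 had Cdh5 at 3784 CPM. Control replicate 2 had Sftpb at 1687 CPM and Epcam at 20.5 CPM, control replicate 4 had Bax at 39.2 CPM, and control replicate 1 had Chac1 at 7.57 CPM.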

How the results depend on the processing

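Over 18 alternatives, 21 of the 32 p53 genes kept the sign of their log2 fold change. The other 11 had fitted values of at most 0.108 in size. The number of p53 genes called higher was 0, and 2 with DESeq2, 2 without a low-count filter, 3 with the replicate block and 0 to 2 with each library left out. Phlda3, Psrc1, Gdf15 (block only) and Aen (without replicate 5 of the labelled-KO libraries only) made up these calls. Over all genes, 79 were called higher and 0 lower. The counts were 2 higher with library size only, limma-voom and quality weights. They were 208 and 3 with DESeq2, 141 and 2 without a filter, 146 and 3 with the replicate block, and 2 to 154 and 0 to 1 with a library left out. There were 2 without any 1 control or labelled-KO replicate 3 or 4, and 154 without labelled-KO replicate 1. Same-numbered libraries correlated by 0.0679 to 0.433 in their deviations and 4 of 5 numbers exceeded 0.1. Pairing was to be accepted only if all 5 did, and number 2, at 0.0679, did not, so pairing is neither established nor excluded and the block is given as an alternative. Libraries of every number except number 2 correlated best with their own number. With the block the adjusted p was 0.0129 for Phlda3, 0.0445 for Psrc1 and 0.0115 for Gdf15. Tnfsf10 had -0.90 (edgeR adjusted p = 0.425), and -1.21 to -0.72 with a library left out. It passed without labelled-KO replicate 2 (-1.21, edgeR adjusted p = 0.0345).

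Tigar had 0.012 with limma-voom, 0.017 with quality weights and 0.0022 with the block. With quality weights Plk2 had -0.0061, Ercc5 0.017 and Col3a1 0.054. Plk3 had -0.0011 without a filter, and Tyrobp 0.013 with limma-voom. The cause was not tested. With libraries left out in turn the log2 fold changes ranged from -0.081 to 0.072 for Tigar, -0.146 to 0.138 for Plk2, -0.039 to 0.11 for Plk3, -0.077 to 0.024 for Ercc5 and -0.092 to 0.058 for Ddb2. They ranged from -0.045 to 0.23 for Cdkn1a, -0.0064 to 0.13 for Ccng1, -0.0021 to 0.065 for Ppm1d, -0.11 to 0.035 for Mdm4, -0.036 to 0.132 for Fdxr and -0.23 to 0.026 for Perp. Of other genes they ranged from -0.175 to 0.085 for Col3a1, -0.714 to 0.021 for Tyrobp, -0.139 to 0.016 for Cd68, -0.02 to 0.238 for Dcn, -0.033 to 0.75 for Fkbp5, -0.202 to 0.03 for Klf9, -0.063 to 0.429 for Per1, -0.122 to 0.126 for Sgk1, -0.078 to 0.101 for Sftpb and -0.167 to 0.048 for Sftpc. With 5 libraries a group, 1.5-fold changes were recovered in 56.2% of simulated cases, so many differences of the size seen here could go uncalled.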
